A study of Mus musculus with 2 samples.

Results

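The Hox genes of the mouse were followed in total RNA of the newborn thymus. Members were all protein-coding genes whose GENCODE M21 symbol is Hoxa, Hoxb, Hoxc or Hoxd followed by a number, matched by Ensembl identifier without its version. The rule found 39 genes among 21474 protein-coding genes and 43346 genes in all, and each of the 39 had a row in both gene tables. There were 11 members in the Hoxa cluster, 10 in Hoxb, 9 in Hoxc and 9 in Hoxd.

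The samples formed 1 group of 2 newborn pups (age 0 days) of strain B6NCrl, with no treatment and no genetic change named in the labels. Both pups came from 1 pregnant female, and both thymus lobes of each pup went into 1 library made from 10 ng of RNA. Sex was not recorded, and the labels give both pups the same donor entry. With 1 group there was no condition to compare, so the values below are levels and their spread between 2 littermates, and no p-value was computed.

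Hox genes encode homeodomain transcription factors that give cells their position along the head-to-tail axis. In each cluster the genes stand in the order in which they are switched on: low numbers at the 3′ end act early and toward the head, high numbers at the 5′ end act late and toward the tail. The thymus grows from the pharyngeal region, where Hoxa3 is required for the organ to form, and Hox proteins bind DNA together with partners of the TALE homeodomain class, PBX, MEIS and PREP. Genes with the same number in different clusters are paralogues, copies that share much of their protein sequence.

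Total depth was 39045711 expected counts (estimated read counts that need not be whole) in replicate 1 and 41576378 in replicate 2. Defining markers fitted the labelled tissue: all 5 thymocyte markers had at least 1 TPM (transcripts per 1000000 transcripts, a level corrected for length) in both libraries, with a median of 380 TPM, and all 7 thymic epithelial markers did so, with a median of 93.8 TPM. Of the other cell types the dissection could hold, 7 of 8 mesenchymal markers (summed level 300.5 and 341 TPM), 6 of 8 haematopoietic progenitor markers (66.5 and 64.9 TPM) and 4 of 4 endothelial markers (62.5 and 63.8 TPM) were detected. Parathyroid and thyroid markers were at 58.2 and 30.7 TPM in sum, 2 of 6 detected, muscle markers at 18.1 and 25.0 TPM, 3 of 6 detected, and neural crest and glial markers at 1.71 and 1.04 TPM, 0 of 5 detected. Which of these cells carried the Hox RNA was not tested. In whole tissue, few cells with much Hox RNA and many cells with little cannot be told apart.

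Sequences are shown for the member that led the family, for members listed at 0 that share a motif with it, and for the noncoding transcript that neighbours it. The 250 bases before the start of a gene were available from RefSeq (GRCm38.p6) for 22 of 39 members. They were searched on both strands for TGATNNAT, a site at which PBX and HOX proteins bind as a pair, and for TGACAG, a site of MEIS proteins. TGATNNAT was in 3 of 22 members (Hoxa2, Hoxb8 and Hoxb1) and in 7.68% of all 32851 such windows, and TGACAG was in 2 of 22 (Hoxa2 and Hoxa3) and in 15.9%. Hoxa2 alone held both. The windows of Hoxa2 (chr6:52164832-52165081, minus strand), Hoxb8 (chr11:96281655-96281904, plus strand) and Hoxb1 (chr11:96365508-96365757, plus strand) are printed 5′ to 3′ with matches in capitals.
Hoxa2: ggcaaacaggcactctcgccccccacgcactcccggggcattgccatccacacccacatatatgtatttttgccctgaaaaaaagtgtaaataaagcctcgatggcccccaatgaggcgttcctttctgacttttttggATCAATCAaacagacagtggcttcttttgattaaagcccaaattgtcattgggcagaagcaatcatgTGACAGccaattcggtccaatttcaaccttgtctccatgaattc
Hoxb8: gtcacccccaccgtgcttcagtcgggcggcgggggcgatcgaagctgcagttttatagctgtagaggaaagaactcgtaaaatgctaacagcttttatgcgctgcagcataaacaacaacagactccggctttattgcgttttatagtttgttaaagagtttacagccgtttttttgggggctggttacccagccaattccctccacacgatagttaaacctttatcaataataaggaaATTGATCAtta
Hoxb1: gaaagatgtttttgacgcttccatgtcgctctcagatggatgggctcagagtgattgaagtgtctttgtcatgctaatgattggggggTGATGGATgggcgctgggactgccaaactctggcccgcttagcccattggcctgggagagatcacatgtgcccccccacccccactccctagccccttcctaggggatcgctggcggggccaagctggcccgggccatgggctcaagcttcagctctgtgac

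The match of Hoxb1 and that of Hoxb8 stand before genes listed at 0 counts in both libraries, and that of Hoxa2 stands before the most abundant member. A match is a run of letters and was not tested as a site. The Hoxa2 window lies in an intron of the readthrough model Gm28308 and the last bases of the Hoxb1 window reach into its annotated first exon. Hotairm1-203 (chr6:52158524-52162020, plus strand, GRCm38, from GENCODE M21) is the short transcript to which most of the Hotairm1 TPM was assigned. It has 253 bases in 2 exons just 3′ of Hoxa2 in the cluster, the second of which (chr6:52161931-52162020) is in capitals.
Hotairm1-203: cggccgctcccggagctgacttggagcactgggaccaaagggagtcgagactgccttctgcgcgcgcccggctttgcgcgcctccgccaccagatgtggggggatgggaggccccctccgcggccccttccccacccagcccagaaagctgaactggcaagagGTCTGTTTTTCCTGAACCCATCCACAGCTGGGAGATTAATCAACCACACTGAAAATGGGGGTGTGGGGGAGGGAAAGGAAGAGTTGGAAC

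Hox RNA was scarce in the newborn thymus, and Hoxa2 was the most abundant member. Counts assigned to all 39 members summed to 606.11 in replicate 1 and 635.24 in replicate 2, or 15.5 and 15.3 CPM (counts per 1000000 counts). Their summed level was 11.89 and 11.81 TPM, a mean of 11.9 ± 0.0566 (SD, n = 2). Only Hoxa2 and Hoxb2 had at least 1 TPM in both libraries, 2 of 39 members or 5.13%, against 57.3% of all protein-coding genes. The median member had 0.095 TPM, the median protein-coding gene 2.87 TPM, and 38 of 39 members lay below that gene.

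Hoxa2, which in the embryo specifies the skeleton of the second pharyngeal arch, had 201 counts in replicate 1 and 231 in replicate 2. Its level was 4.31 and 4.59 TPM, a mean of 4.45 ± 0.198 (SD, n = 2), which exceeded the level of 54.2% of protein-coding genes. The authors' own interval for its TPM ran from 3.67 to 4.84 in replicate 1 and from 3.94 to 5.10 in replicate 2. Its level was near the middle of all protein-coding genes. That rank counts undetected genes too, since only 57.3% of protein-coding genes had at least 1 TPM in both libraries. Within an otherwise low family, Hoxa2 alone held 36.2% and 38.9% of all Hox TPM. All of its counts fell on its only deposited transcript, and in GENCODE M21 0% of its exon bases were covered by exons on the other strand. A readthrough model on the same strand, Gm28308, shared 15.0% of them and was listed at 0 counts in both libraries.

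Hoxa3, the paralogue whose loss leaves mice without a thymus, had 63.51 and 75.66 counts, or 0.86 and 0.95 TPM. Hoxb2, a hindbrain gene of the same paralogue group as Hoxa2, had 49.45 and 61.04 counts, or 1.04 and 1.14 TPM. Both belong to the 3′ end of their clusters. Exons on the other strand cover 25.4% of the exon bases of Hoxa3 and 27.3% of those of Hoxb2, so some of their reads may belong there. In each of these 2 genes the count of either library lay within the exact Poisson 95% interval of the other, which covers counting error only. Hoxa2, Hoxa3 and Hoxb2 stood above Hoxb1 and Hoxd1, which are also 3′ genes. Hoxb1, a marker of a single hindbrain segment, was listed at 0 counts in both libraries, and Hoxd1 had 2 counts in each.

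Hoxb3, the Hoxa3 paralogue of the Hoxb cluster, had 13.46 and 6.97 counts (0.23 and 0.15 TPM). Hoxd3, the remaining paralogue, had 7 and 17 counts (0.09 and 0.31 TPM). Neither level came near that of Hoxa3. The counts of both genes rest in part on how reads were divided, since 52.9% of Hoxb3 exon bases are shared with exons on the other strand and 62.3% of Hoxd3 exon bases with exons of Hoxd4 or of a further gene on the same strand. In replicate 1 all of the Hoxd3 TPM was assigned to a transcript with a retained intron, and in replicate 2 34.9% was.

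Of the central genes, numbered 4 to 8, Hoxa7 and Hoxd8 led. Hoxa7, a trunk-patterning gene, had 38.54 and 31.57 counts, or 1.32 and 0.88 TPM, so it passed 1 TPM in replicate 1 alone. Its reads were spread over 5 transcripts that changed places between the libraries: transcript Hoxa7-202 held 48.0% of its TPM in replicate 1 and 0% in replicate 2, and Hoxa7-203 held 17.8% and 48.8%. Hoxa7-205, annotated as a target of nonsense-mediated decay (breakdown of faulty mRNA), had the most counts, 14.38 and 22.93, or 19.1% and 42.4% of the TPM. Hoxaas3 on the other strand covers 20.4% of its exon bases. Hoxd8 had 43 and 48 counts, or 0.59 and 0.60 TPM, 95.3 ± 6.71% of it (SD, n = 2) on transcript Hoxd8-201. Hoxa4 had 10 and 15 counts, Hoxb4, known for expanding blood stem cells when forced on, had 12 and 6, and Hoxb5 had 7 in each. The other 10 central members had at most 9 counts in either library, and Hoxa6 and Hoxb8 were listed at 0 in both.

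Of the posterior genes, numbered 9 to 13, Hoxa9, Hoxd9 and Hoxb13 stood out from the rest. Hoxa9, a gene of blood progenitors as well as of the limb and trunk, had 38 and 16 counts (0.68 and 0.51 TPM). Hoxd9, its paralogue, had 26 and 15 counts (0.43 and 0.23 TPM). Hoxb13, a tail and prostate gene that lies apart from the rest of its cluster, had 22 and 30 counts (0.35 and 0.45 TPM). Hoxb13 was thus higher than any other member numbered 10 or above: Hoxa10 had 3 and 7 counts, Hoxd10 had 6 and 1, and the other 9 such members had at most 4 in either library. Hoxb9, the next gene of its cluster, had 5 and 1.

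**Figure D1:**
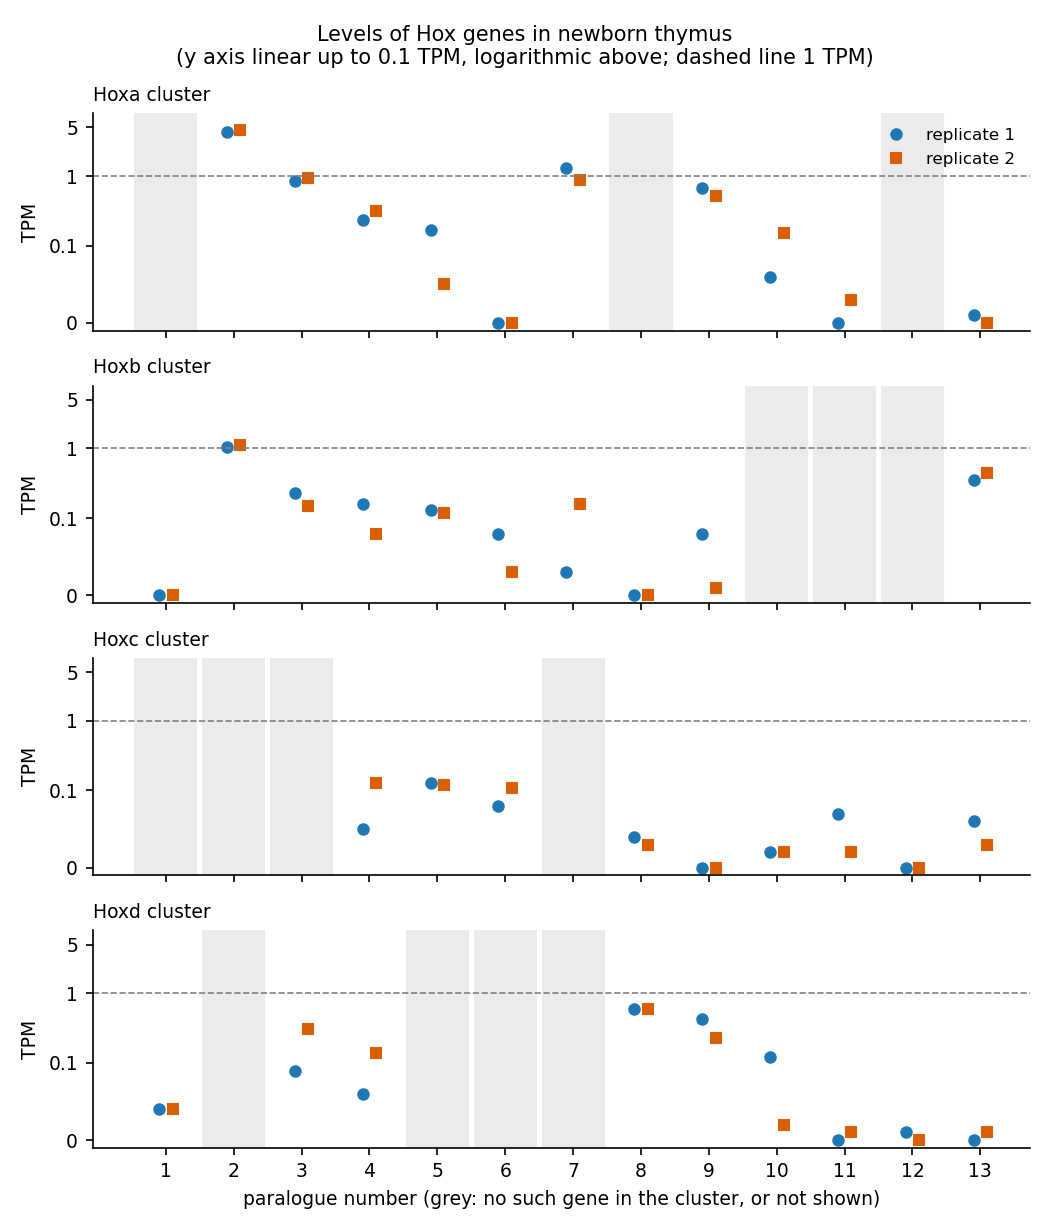
Level of 38 of the 39 Hox genes in TPM (y axis, linear up to 0.1 TPM and logarithmic above) by paralogue number (x axis), with a panel for each cluster, circles for replicate 1 and squares for replicate 2. Hoxa2 stands highest at 4.31 and 4.59 TPM, Hoxb2 lies just above the dashed line at 1 TPM, and the 9 Hoxc genes all lie near or below 0.1 TPM.

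Counted over the family, 29 of 39 members had a count in both libraries, 5 had a count in 1 library only, and 5 (Hoxa6, Hoxb1, Hoxb8, Hoxc9 and Hoxc12) had 0 in both. Of all protein-coding genes 14.0% had 0 in both, close to the 5 of 39 members. A count of 0 allows up to 3 counts, or 0.0768 and 0.0722 CPM, and 15 members had at most 3 counts in both libraries, so that their levels cannot be told from that limit. At a lower threshold of 0.5 TPM in both libraries 6 members passed (Hoxa2, Hoxa3, Hoxa7, Hoxa9, Hoxb2 and Hoxd8) against 62.0% of protein-coding genes, and 10 had at least 10 counts in both against 69.3%. These 6 members held 73.7 ± 0.424% (SD, n = 2) of the summed Hox TPM. For 28 members the authors' estimate of the spread that read assignment adds to the count was 0 in both libraries.

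The Hoxa cluster held most of the Hox RNA. Its 11 genes (chr6:52155590-52260880, minus strand, GRCm38) had 8.0 and 7.85 TPM in sum, 66.9 ± 0.576% of the family's total (SD, n = 2). The 10 Hoxb genes (chr11:96194316-96368256, plus strand) had 2.10 and 2.14 TPM, or 17.9 ± 0.324%. The 9 Hoxd genes (chr2:74668310-74765142, plus strand) had 1.34 and 1.36 TPM, or 11.4 ± 0.174%. The 9 Hoxc genes (chr15:102921103-103036852, plus strand), which begin at paralogue number 4, had 0.45 and 0.46 TPM, or 3.84 ± 0.0780%. This share rests on few counts and was 2.43% over protein-coding transcripts and 5.97% by the authors' posterior mean TPM. The order of the 4 clusters was the same in both libraries, and the distance between neighbours in that order exceeded the spread between the pups. In counts, which are not divided by gene length, the order also held, with 19 and 20 counts in all of Hoxc.

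Summed over the 4 clusters, the RNA was weighted toward the 3′ end, though not in each cluster. Paralogue groups 1 to 3, with 8 genes, held 6.93 and 7.55 TPM, or 61.1 ± 3.99% of the total (SD, n = 2). Groups 4 to 8, with 15 genes, held 3.07 and 2.77 TPM (24.6 ± 1.67%), and groups 9 to 13, with 16 genes, held 1.89 and 1.49 TPM (14.3 ± 2.32%). By cluster, groups 1 to 3 were highest in Hoxa (5.53 and 5.91 TPM) and Hoxb (1.27 and 1.29 TPM), while Hoxc has no such genes. In Hoxd, groups 4 to 8 were highest at 0.65 and 0.74 TPM. Its groups 1 to 3 had 0.13 and 0.35 TPM and its groups 9 to 13 had 0.56 and 0.27 TPM. Over all clusters the decline was not even from number to number. Paralogue group 2 was highest at 5.35 and 5.73 TPM. Groups 3, 7 and 9 followed with 1.18 and 1.41, 1.35 and 1.04, and 1.19 and 0.75 TPM. The ranges of these 3 groups over the 2 libraries overlapped. Group 12 was lowest at 0.01 and 0.00 TPM. Most of the weight at the 3′ end was that of 1 gene, since Hoxa2 alone made up 37.6 ± 1.85% of the family's TPM.

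The Hoxa cluster also held noncoding RNA on the strand opposite to the Hox genes. GENCODE places 45 other genes between the outermost members of the 4 clusters, most of them noncoding. Of these, 5 had at least 1 TPM in both libraries, all in Hoxa, and 27 were listed at 0 in both. The same shares over all noncoding genes were not computed, so whether these counts are unusual was not tested. Of the 5 detected genes, 4 were antisense or noncoding RNAs near Hoxa2 and Hoxa3. The fifth was Gm27477, annotated as a short RNA, with 15 and 11 counts, whose TPM (11.6 and 7.86) rests on an effective length of 44 bases. Whether its reads came from a separate short RNA was not tested. Hotairm1, an RNA from the 3′ end of the cluster that was described in developing blood cells, had 269.87 and 233.43 counts. Hoxaas2 had 175.49 and 162.34, Hoxaas3 had 58.46 and 53.43, and Gm15050 had 57 and 48. These 4 genes supplied 93.2% and 93.0% of all opposite-strand counts in the cluster.

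Summed over the Hoxa cluster, opposite-strand genes had 601.95 and 534.77 counts and the Hox genes 387.05 and 405.23, a ratio of 1.56 and 1.32. In Hoxb the same ratio was 0.364 and 0.353, most of it from Hoxb3os with 39.09 and 39.99 counts. In Hoxd it was 0.182 and 0.132, and in Hoxc the opposite strand had 1 and 0 counts in all. Opposite-strand RNA thus exceeded Hox RNA in counts in the Hoxa cluster alone, in both libraries. Whether the authors counted reads by strand is not given in the sources used here, so reads in bases shared by both strands cannot be assigned with certainty. The shared part was 19.3% of the exon bases of Hotairm1, 15.0% of Hoxaas2 (with Hoxa3), 30.6% of Hoxaas3 (with Hoxa3 and Hoxa7), 0% of Gm15050 and 76.2% of Hoxb3os (with Hoxb2 and Hoxb3).

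**Figure D2:**
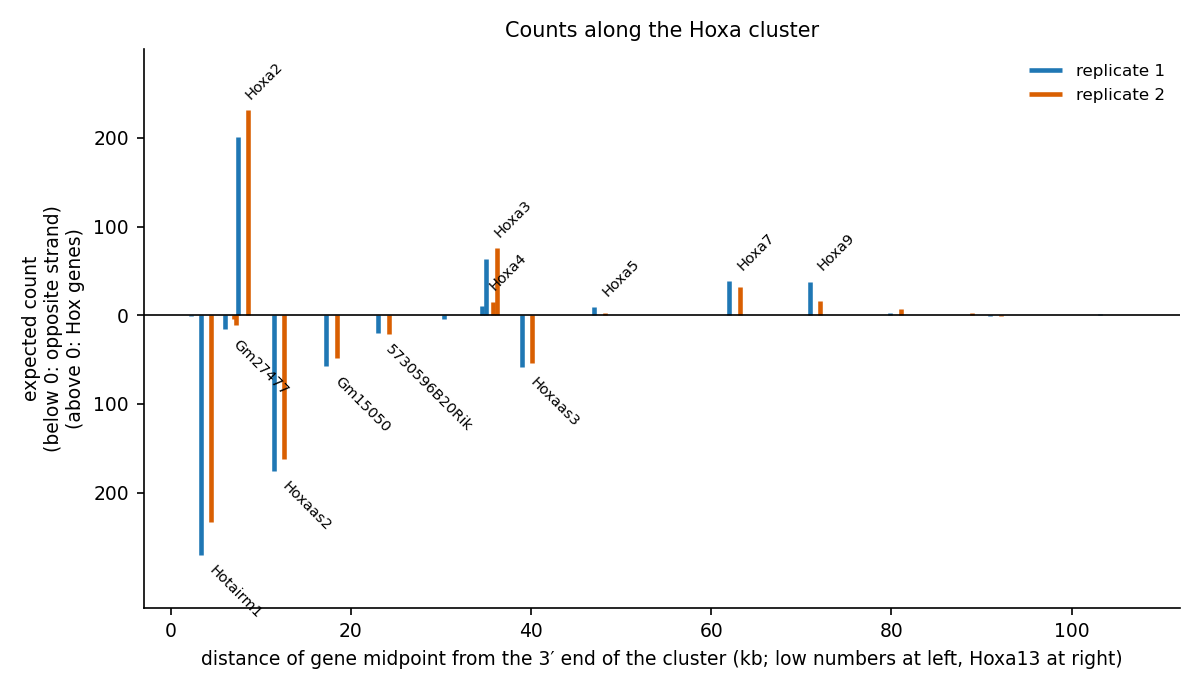
Expected counts of 10 Hox genes and of other genes in the Hoxa cluster (y axis, Hox genes upward and genes of the opposite strand downward) against the distance of each gene's midpoint from the 3′ end of the cluster in kb (x axis), with a pair of bars for replicates 1 and 2 set side by side. Hoxa2 with 201 and 231 counts and Hotairm1 with 269.87 and 233.43 lie within the first 10 kb, and little lies beyond Hoxa9; Hoxa3 is a long gene, so its midpoint falls beside Hoxa4.

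Hotairm1 and Hoxa2 compare differently on the 2 scales. In TPM, Hotairm1 had 41.25 and 32.05 against 4.31 and 4.59 for Hoxa2, a ratio of 9.57 and 6.98 (mean 8.28 ± 1.83, SD, n = 2). In counts the ratio was 1.34 and 1.01. TPM divides by length and counts do not: 84.1 ± 1.13% (SD, n = 2) of the Hotairm1 TPM was assigned to Hotairm1-203, the 253-base transcript printed above, and without it the TPM ratio was 1.31. All bases of that transcript also lie in the longer Hotairm1-202 of 713 bases, so the division of reads between the 2 is an estimate.

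Other noncoding RNAs of the clusters, some of them studied for effects on Hox genes in other tissues, were near or at 0. Hotair, from the Hoxc cluster, had 1 and 0 counts, Haglr from Hoxd had 5 and 3, Hoxa11os had 1 and 1, and Hottip at the 5′ end of Hoxa was listed at 0 in both libraries. All 6 listed hairpins of the Mir10, Mir196 and Mir615 families were listed at 0. The libraries kept RNA above a size limit, so these values say nothing of the mature miRNAs.

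Detected genes lay on both sides of each cluster. The nearest protein-coding gene detected beyond the 3′ end of Hoxa was Skap2, a signalling adaptor, 143 kb away with 20.5 and 21.6 TPM, and beyond the 5′ end Hibadh, an enzyme of valine breakdown, 285 kb away with 171 and 159 TPM. Around Hoxb the nearest detected were Skap1, a T cell adaptor, 96.3 kb away at 370.3 and 311 TPM, and Atp5g1, a subunit of ATP synthase, 119 kb away at 505 and 550.3 TPM. Around Hoxc they were Smug1 (116 kb, 6.01 and 7.02 TPM) and Calcoco1 (199 kb, 45.5 and 48.5 TPM), and around Hoxd Mtx2 (60.7 kb, 73.7 and 75.9 TPM) and Lnpk (88.9 kb, 26.6 and 21.4 TPM). Each of these 8 neighbours exceeded every Hox gene in both libraries, but they were picked as detected genes, so genes below 1 TPM were passed over. Between Hoxb13 and Atp5g1 lie Ttll6 (0.10 and 0.04 TPM) and Calcoco2 (0.16 and 0.10 TPM). Of 13 listed flanking genes 9 were detected, against 57.3% of all protein-coding genes. Evx1 and Evx2, the homeobox genes directly next to Hoxa13 and Hoxd13, had 1 and 0 counts and 0 and 0 counts, as low as the posterior Hox genes beside them.

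Most partners of Hox proteins were more abundant than the Hox genes themselves. Of 9 TALE-class cofactors, 8 were detected in both pups, against 57.3% of all protein-coding genes, and the median of the 9 was 9.81 TPM. Pknox1 (PREP1) was highest at 22.7 and 23.2 TPM, followed by Meis3 at 17.2 and 16.9 and Pbx4 at 15.1 and 12.5. Meis1, a partner of Hoxa9 in blood progenitors, had 13.02 and 13.79 TPM. Pknox2, at 0.76 and 1.04 TPM, was the member that missed the threshold. These cofactors also serve factors other than Hox proteins.

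Of 9 transcription factors of the pharyngeal pouch and thymus bud, 6 were detected, near the 57.3% of all protein-coding genes, and the median level was 6.29 TPM. Pax1, a pouch factor, had 31.24 and 45.04 TPM and Foxn1, which drives thymic epithelial differentiation, had 18.4 and 27.4 TPM. Hoxa3, which acts in the same network in the embryo, had 0.86 and 0.95 TPM beside them. Tbx1 (0.20 and 0.13 TPM), the parathyroid factor Gcm2 (0.05 and 0.05 TPM) and the neural crest factor Pax3 (0.03 and 0.01 TPM) were below the threshold.

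Every listed chromatin regulator of Hox clusters passed 1 TPM in both libraries, against 57.3% of all protein-coding genes. The 12 Polycomb genes, which keep Hox genes silent outside their domains, had a median of 15.9 TPM, led by Ezh2 at 142 and 133 TPM, Rnf2 at 55.6 and 53.8 and Eed at 43.8 and 42.6. The 7 genes of the activating side had a median of 25.8 TPM, led by Psip1 at 119 and 120.4 TPM, Men1 at 42.6 and 44.6 and the demethylase Kdm6b at 37.6 and 26.1. Kmt2a (MLL1), which maintains Hox expression in blood cells, had 11.6 and 6.93 TPM.

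Of 13 upstream factors of Hox genes, 8 were detected, again near the share of all protein-coding genes, and the median level was 2.28 TPM. Rara, a retinoic acid receptor, led with 33.2 and 33.9 TPM, and the hindbrain regulator Egr2 had 7.19 and 8.88 TPM. The caudal gene Cdx1 had 6.26 and 5.41 TPM, while its relatives Cdx2 and Cdx4 were at 0.11 and 0.03 and at 0.02 and 0.12 TPM. Aldh1a2, which makes retinoic acid, had 0.91 and 0.67 TPM, Gata6 had 0.61 and 0.57, and Rarb had 1.05 and 0.95. Among 11 other homeobox genes of the clustered kind, Cdx1 was the only member detected and the median was 0.045 TPM, beside 0.095 TPM for the Hox genes.

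**Figure D3:**
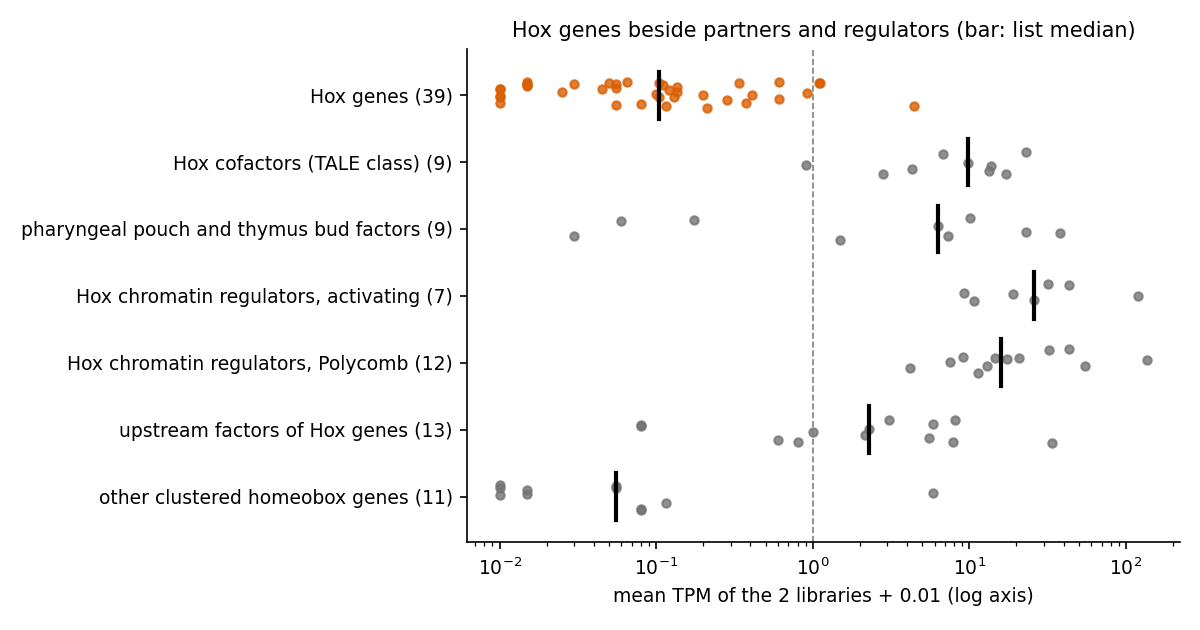
Mean TPM of the 2 libraries with 0.01 added (x axis, logarithmic) for each gene (points) of 7 lists (rows, with the number of genes in brackets), with a black bar at the list median and a dashed line at 1 TPM. The Hox genes (orange, median 0.095 TPM) lie mostly below the cofactors (median 9.81 TPM) and the Polycomb genes (median 15.9 TPM), and Hoxa2 at 4.45 TPM is within the range of both.

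Relative to all genes, the share of Hox RNA in the 2 libraries differed by less than counting error. After TMM scaling, which sets the libraries equal over most genes, the log2 ratio of replicate 2 to replicate 1 over the summed counts was 0.0051, with an exact binomial 95% interval from -0.16 to 0.17, or a fold of 1.00 with an interval from 0.896 to 1.12. The interval covers counting error only. Scaled on the spike-ins instead, the ratio was 0.70 and the median of all genes with a mean count of at least 50 was 0.71, so the Hox genes moved with the other genes and their amount relative to the spike-ins differed. Among members whose counts averaged 50 or more, none was over 2-fold apart, 0 of 3 (Hoxa2, Hoxa3 and Hoxb2), beside 1.36% of all 14155 genes at that depth. Their log2 ratios were 0.14, 0.18 and 0.25.

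Of the 12 members whose counts averaged 10 or more, 7 were higher in replicate 2 and 5 in replicate 1, with a median log2 ratio of 0.11 beside 0.01 over all 17986 such genes. Hoxa9 and Hoxd3 were over 2-fold apart, 2 of 12 against 4.71% of all genes averaging 10 counts or more (847 of 17986). Most of those genes were deeper: 14155 averaged 50 or more, and of these only 192 were over 2-fold apart. The mean counts of Hoxa9 and Hoxd3 were 27 and 12. The 4.71% is therefore not the share of genes as shallow as these 2, which was not computed. Hoxa9 was 2.44-fold higher in replicate 1 (log2 ratio -1.29), where the exact Poisson 95% intervals of its counts ran from 26.9 to 52.2 and from 9.15 to 26.0 and did not overlap. In TPM the distance was smaller (0.68 and 0.51), because the authors' estimate placed its reads on shorter transcripts in replicate 2: Hoxa9-201, the longest at 3226 bases, held 50.02% of its TPM in replicate 1 and 15.0% in replicate 2. Hoxd3 was 2.24-fold higher in replicate 2 (log2 ratio 1.16), with overlapping intervals from 2.81 to 14.4 and from 9.90 to 27.2. Hoxb3, Hoxd9 and Hoxa7 were also higher in replicate 1, with log2 ratios of -0.91, -0.84 and -0.35, each under 2-fold. With 1 library for each pup, biological and technical sources of these differences cannot be told apart.

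**Figure D4:**
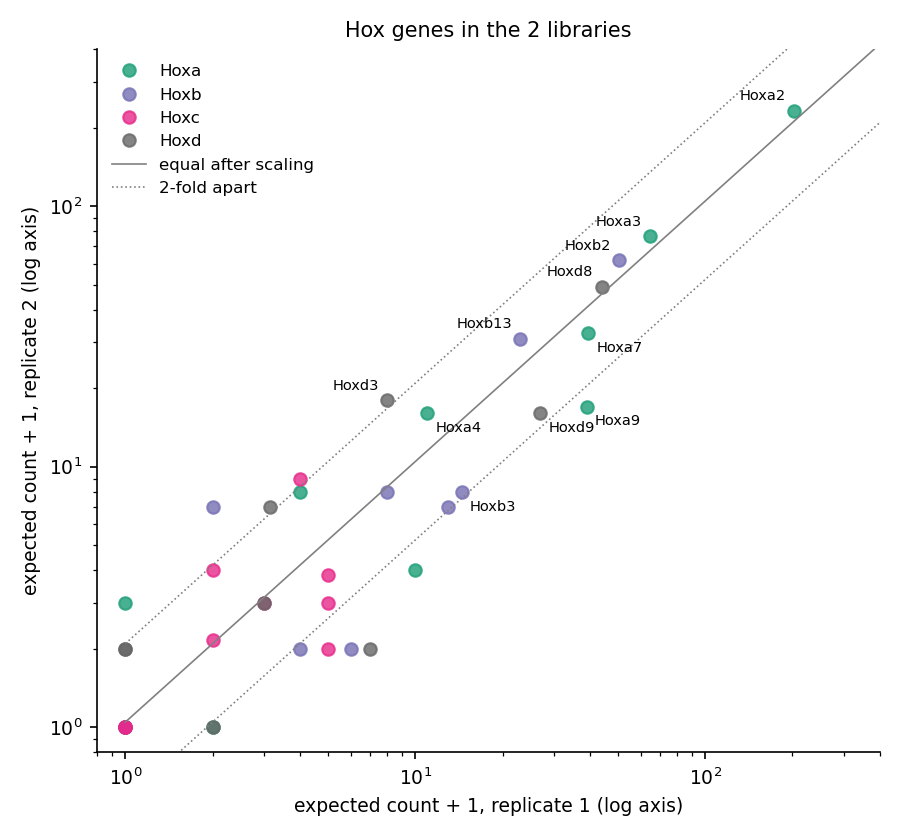
Expected count with 1 added for 38 of the 39 Hox genes in replicate 2 (y axis) against replicate 1 (x axis), both logarithmic, coloured by cluster, with a solid line where the libraries are equal after scaling and dotted lines where they are 2-fold apart. Hoxa2, Hoxa3, Hoxb2 and Hoxd8 lie close to the solid line, Hoxa9 (38 and 16 counts) lies below the lower dotted line, and the scatter widens below 10 counts.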

How the data were processed

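Per the labels' protocols, RNA of both thymus lobes of each pup was extracted with a mirVana kit and size-limited, spike-ins were added, and a low-input kit manual is cited. Estimated counts (expected counts) per gene and transcript were deposited as raw estimates. TPM as deposited is scaled by length and by the library's sum, and FPKM as deposited by length and depth. How each gene's TPM divides over its transcripts was deposited in percent. Per the deposited read-me texts the build is mm10 and the annotation M4; no aligner, quantifier or strand setting is given in the sources used here. Names came from GENCODE M21, which matched 42462 of 43346 genes and all 87 deposited Hox transcripts.

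Detected means a TPM of 1 or more in each of the 2 libraries. Log2 ratios are replicate 2 over replicate 1 of rounded counts, scaled with edgeR TMM (4.0.16, R 4.3.3) on all genes, with a prior count of 0.5, and a call was over 2-fold at a mean count of at least 50. On simulated data of 43346 genes, 99.5% of 200 genes changed 4-fold were found at the 2-fold cut. The 200 were drawn from genes with a mean count of at least 50. Smaller changes, and genes below that depth such as Hoxa9 and Hoxd3, were not covered. The interval of the summed ratio is an exact binomial 95% interval. Intervals and the floor of 3 counts cover counting error only: without molecular identifiers, reads are not independent molecules. DESeq2 1.42.0 gave other size factors. Python 3.11.15, pandas 2.3.3 and scipy 1.17.1 were used. The members, lists and thresholds were chosen with earlier results of these data known. Values of 1 member and 2 other listed genes are not reported here. The other members could be named, and of each other list the 3 highest genes, those below 1 TPM and genes within the clusters; Meis1, Kmt2a, Cdx1 and Rarb were added by name once their values had been seen. Of the listed noncoding and flanking genes 4 were not analysed here.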

Additional observations from a re-analysis of the deposited data

How the results depend on the processing

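The number detected, the shares of the 4 clusters and of groups 9 to 13, the summed ratio, the 2-fold calls and the ratio of Hotairm1 to Hoxa2 were recomputed under the alternatives that apply to each; other values were not. The number of members detected, 2, was 6 at 0.5 TPM, 13 at 0.1 TPM, 0 at 5 TPM, 10 by counts of at least 10 and 1 by FPKM of at least 1, and it was 2 and 3 in a library alone. The share of the Hoxa cluster, 66.9%, was 63.8% in counts, 68.2% over protein-coding transcripts and 62.2% by posterior mean TPM. That of Hoxb, 17.9%, was 18.7% in counts and 19.0% by posterior mean. That of Hoxc, 3.84%, was 3.72% in FPKM, 3.14% in counts, 2.43% over protein-coding transcripts and 5.97% by posterior mean. That of Hoxd, 11.4%, was 14.4% in counts, 11.2% over protein-coding transcripts and 12.8% by posterior mean. The order of the clusters was the same in each of these. The share of groups 9 to 13, 14.3%, was 17.9% by posterior mean. Why these shares moved was not tested.

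The log2 ratio of summed Hox counts, 0.0051, was 0.70 with spike-in scaling, which moves the median of all genes to 0.71. Members over 2-fold apart, 0 of 3, were 2 of 12 at a mean count of at least 10 and 18 of 39 with no filter, beside 12.7% of all genes, and 16 of these 18 had a mean count under 10. Hotairm1 over Hoxa2, 8.28 in TPM, was 1.18 in counts and 1.31 without the shortest transcript, alternatives chosen after seeing the data. No paired analysis was possible because there was 1 group. Leaving out a library left no value for ratios between libraries. At this depth 15 members were at or under the 3 counts that a count of 0 allows.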
